A study of Mus musculus with 8 samples.

Results

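Chemokines that myeloid and stromal cells make in inflammation were followed across the libraries of co-cultured and separately cultured mouse lymphocytes. The set was fixed by name, with earlier results of these data known, so its counts and medians are no independent test. It holds 10 genes, Cxcl1, Cxcl2, Cxcl3, Cxcl5, Cxcl9, Cxcl10, Cxcl12, Cxcl16, Ccl2 and Ccl7, of 19805 gene symbols listed in either count table. Of the 10, 7 had a row in the table of group 2 innate lymphoid cells (ILC2s) and 4 had a row in the table of CD8 T cells. Cxcl12, Ccl2 and Ccl7 had no row in either table under these symbols or their RefSeq synonyms and were not analysed here. In the CD8 T cell table Cxcl1, Cxcl5 and Cxcl9 also had no row.

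Chemokines are small secreted proteins that bind G protein-coupled receptors and set the direction in which leukocytes move. CXCL1, CXCL2, CXCL3 and CXCL5 attract neutrophils through CXCR2 and are made by macrophages, fibroblasts and epithelium after interleukin-1, TNF or microbial signals, largely through NF-kappaB. CXCL9 and CXCL10 are induced by interferons and attract activated T cells and NK cells through CXCR3. CXCL16 is made as a membrane protein of macrophages and other antigen-presenting cells, is shed by the proteases ADAM10 and ADAM17, and binds CXCR6. CXCL12 acts on CXCR4, and CCL2 and CCL7 call monocytes through CCR2.

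The libraries were bulk RNA of sorted primary cells from wild-type mice, the ILC2s taken out of lung and the CD8 T cells out of spleen, with 2 libraries in each of 4 groups. ILC2s labelled co-cultured and CD8 T cells labelled co-cultured had shared a culture for 3 days at 5 CD8 T cells to 1 ILC2, while ILC2s labelled alone and CD8 T cells labelled alone carry the treatment label untreated. Mouse age, strain and sex, any stimulus or cytokine in the medium and the length of the separate cultures were not stated in the labels. Library totals ran from 48072595 to 67076905 read counts. The labels do not tell whether the paired libraries of a group go back to different mice or cultures, and the p-values therefore cover only library-to-library spread, possibly technical. In bulk samples, fewer cells of a type and less RNA per cell cannot be told apart.

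Before the chemokines are described, the ILC2 libraries need a check against their labels. The 10 listed T cell markers summed to 321.0 and 391.2 CPM (counts per 1000000 counts of the library) in ILC2s labelled co-cultured, against 1629 and 1564 CPM in ILC2s labelled alone, so the libraries labelled as having been with T cells held fewer T cell transcripts. The 16 ILC2 markers summed to 11712 and 11515 CPM labelled co-cultured and to 4547 and 4545 CPM labelled alone. Monocyte and macrophage markers (5 of 14 listed in the table) summed to 17 and 21.1 CPM labelled co-cultured and to 313.3 and 319.1 CPM labelled alone. Fibroblast and stromal markers (9 of 13) summed to 114.7 and 119.7 CPM labelled co-cultured and to 7455 and 8075 CPM labelled alone. Every direction below is that of the labels, and the part of these other cell types in the chemokine results was not tested.

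All 7 chemokine genes measured in ILC2s were lower in the libraries labelled co-cultured, in which they stood between 0.0174% and 3.28% of their level in the libraries labelled alone. Summed over the 7 genes, the level was 12.3 and 14.8 CPM labelled co-cultured, against 2532 and 2905 CPM labelled alone. All 7 passed the test (edgeR's quasi-likelihood test, Benjamini-Hochberg adjusted p under 0.05 over all genes), in a comparison in which 66.3% of the 16739 genes tested were called, 34.4% as lower and 31.8% as higher. With the libraries scaled to the ILC2 markers instead, 13461 genes were lower and 460 higher, and all 7 chemokine genes were lower. The median log2 difference of the 7 was -10.06, and that of all genes tested was -0.01. This contrast is descriptive, because the set was chosen with earlier results of these data known. The median of the 7 is the fitted value of Cxcl1, which had 9 reads labelled co-cultured, and is not read as a size. Cxcl1 and Cxcl5 passed the filter on low counts only through the libraries labelled alone, so for these genes being tested already implied a higher level there.

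**Figure D1:**
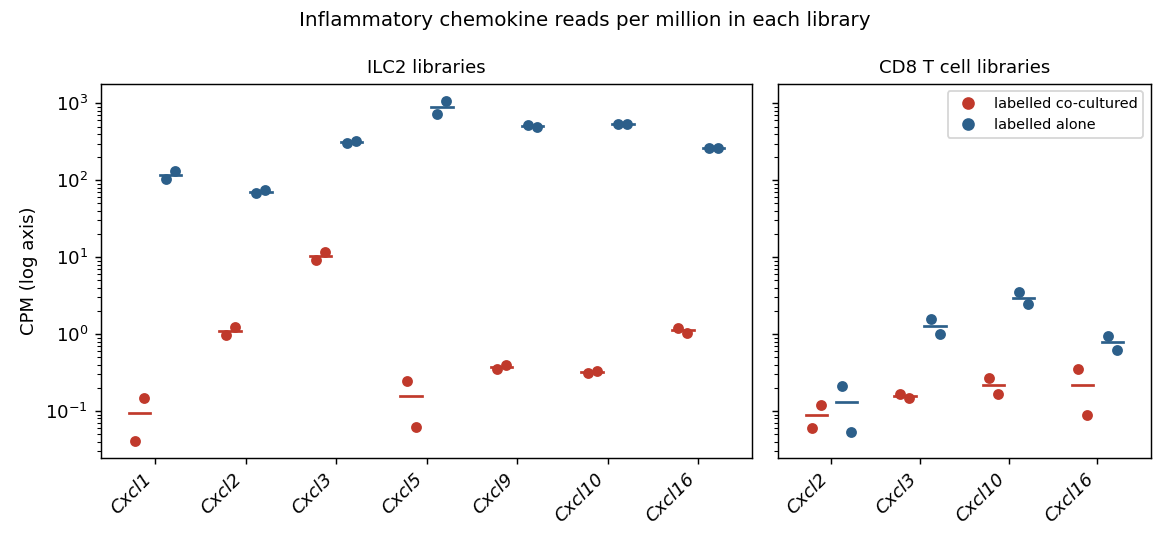
Level in CPM (log axis) of each chemokine gene in every library, with ILC2 libraries on the left and CD8 T cell libraries on the right. Points are libraries and bars are means of 2 libraries. In ILC2s the points labelled co-cultured lie below those labelled alone for each of the 7 genes, with Cxcl3 the highest of those labelled co-cultured at 9.18 and 11.6 CPM.

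The CXCR2 ligands Cxcl5, Cxcl3, Cxcl1 and Cxcl2 lie in the same stretch of chromosome 5 of GRCm38, from the start of Cxcl5 at 90759360 to the end of Cxcl2 at 90905938. Promoter sequence is shown for those with an entry in the RefSeq promoter table (GRCm38.p6), because these genes were lower together and are known targets of NF-kappaB. Each run is the 250 bases before the transcription start on the plus strand, and capitals mark matches to the kappaB-type patterns GGGNNTTTC and GGGNNTTCC on either strand:
Cxcl1, chr5:90890995-90891244: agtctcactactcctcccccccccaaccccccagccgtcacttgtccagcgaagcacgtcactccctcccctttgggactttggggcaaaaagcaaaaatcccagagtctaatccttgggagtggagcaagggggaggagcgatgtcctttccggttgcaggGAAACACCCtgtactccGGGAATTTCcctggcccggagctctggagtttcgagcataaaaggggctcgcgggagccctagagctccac
Cxcl2, chr5:90903649-90903898: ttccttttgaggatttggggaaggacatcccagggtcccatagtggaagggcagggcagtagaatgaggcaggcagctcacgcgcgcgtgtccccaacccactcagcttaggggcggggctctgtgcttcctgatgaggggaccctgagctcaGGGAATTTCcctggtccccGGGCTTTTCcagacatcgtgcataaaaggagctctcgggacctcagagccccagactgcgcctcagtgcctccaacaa
Cxcl3, chr5:90785851-90786100: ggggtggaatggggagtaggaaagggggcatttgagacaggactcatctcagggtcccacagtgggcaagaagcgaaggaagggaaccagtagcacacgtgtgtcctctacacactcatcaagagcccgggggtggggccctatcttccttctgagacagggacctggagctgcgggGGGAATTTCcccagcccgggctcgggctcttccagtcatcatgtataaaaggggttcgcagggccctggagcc

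These 3 promoters share the letters GGGAATTTC within 97 bases of the start, and 0.234% of the 32851 promoters in the table hold these letters on either strand. The exact letters were picked from these same windows, in related genes of the same stretch of chromosome. That share is therefore no test of how unusual the match is. A match to either kappaB-type pattern was found in 8.14% of all promoters. Neither the ISRE core TTTCNNTTT (9.37% of all promoters), the GAS pattern TTCNNNGAA (7.02%) nor the AP-1 pattern TGANTCA (6.75%) was found in these 3 windows. The matches describe the letters, sites of another form would be missed, and no binding was measured.

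Cxcl5, encoding the neutrophil attractant LIX, had the highest read level of the set labelled alone and one of the lowest labelled co-cultured. It was counted at 0.248 and 0.0624 CPM (12 and 3 reads) in ILC2s labelled co-cultured, against 717.4 and 1085 CPM (43571 and 60148 reads) in ILC2s labelled alone. The groups were far apart, while the pair labelled alone differed from each other more than for any other member, with a mean of 901.4 ± 260.2 CPM (SD, n = 2). The level labelled co-cultured was 0.0174% of that labelled alone, with an interval of 0.00974% to 0.0287%. This and the following intervals of such percentages are 95% exact intervals from the pooled reads and cover counting error only. The edgeR adjusted p was 2.4e-10, and no fold from the fit is read as a size because only 15 reads were counted labelled co-cultured.

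Cxcl1, encoding the neutrophil attractant also called KC, stood at 0.0413 and 0.146 CPM (2 and 7 reads) labelled co-cultured, against 105.0 and 130.3 CPM labelled alone. Its level labelled co-cultured was 0.0796% of that labelled alone (0.0364% to 0.151%, edgeR adjusted p = 2.0e-10). Both Cxcl1 and Cxcl5 were therefore near the limit of detection in ILC2s labelled co-cultured.

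Cxcl3 and Cxcl2 were lower as well but stayed well above that limit. Cxcl3 was at 9.18 and 11.6 CPM (445 and 556 reads) labelled co-cultured, against 308.7 and 324.6 CPM labelled alone, a log2 difference of -4.72 (SE 0.15, edgeR adjusted p = 3.3e-10). It kept 3.28% of the level labelled alone (3.08% to 3.49%), the highest share of the 7 genes, and 380 of the 16739 genes tested had a larger fitted fall. Cxcl2 was at 0.970 and 1.25 CPM (47 and 60 reads) labelled co-cultured, against 68.1 and 73.7 CPM labelled alone, a log2 difference of -5.78 (SE 0.18, edgeR adjusted p = 3.0e-10). Its level labelled co-cultured was 1.57% of that labelled alone (1.28% to 1.895%). Reads could be shared between this pair, since 5.84% of the 50-base stretches of Cxcl2 transcripts and 4.29% of those of Cxcl3 occur in transcripts of another gene, for Cxcl2 in Cxcl3, and the authors' handling of such reads is not given in the sources used.

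The mix of CXCR2 ligands was thus unlike between the labels. Per transcript length (TPM, computed here from the counts and the length of the longest protein-coding GENCODE transcript), Cxcl3 made up 92.6% and 92.9% of the summed TPM of the 4 ligands in ILC2s labelled co-cultured, against 33.5% and 27.0% in ILC2s labelled alone. Cxcl5 made up 1.61% and 0.324% labelled co-cultured, against 50.3% and 58.2% labelled alone, and Cxcl1 0.444% and 1.25%, against 12.2% and 11.5%. Cxcl2 changed least as a share, with 5.35% and 5.48% labelled co-cultured and 4.04% and 3.35% labelled alone. In reads, there were 222.5 (95% exact interval 61.2 to 1843) and 79.4 (38.3 to 198.5) reads of Cxcl3 for each read of Cxcl1 labelled co-cultured, against 2.94 (2.86 to 3.02) and 2.49 (2.42 to 2.56) labelled alone. The intervals of the 2 labels do not overlap, but they cover counting error only, and those of the 2 libraries labelled alone do not overlap each other either. No test of this difference between genes was made.

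**Figure D2:**
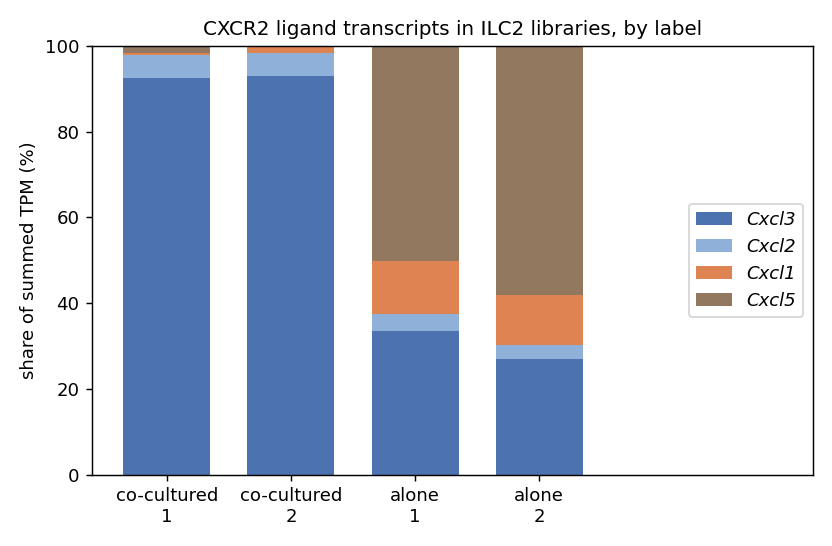
Share (%) of the summed TPM of the 4 CXCR2 ligand genes held by each gene in the 4 ILC2 libraries, 1 bar per library. Cxcl3 fills 92.6% and 92.9% of the bars labelled co-cultured, while Cxcl5 is the largest part of the bars labelled alone with 50.3% and 58.2%.

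The CXCR3 ligand genes neighbour each other on the minus strand of chromosome 5, Cxcl9 at 92321347 to 92328079 and Cxcl10 at 92346638 to 92348889 of GRCm38. Their promoters are shown beside those of the CXCR2 ligands because these genes answer to interferon as well as to NF-kappaB. The runs are the 250 bases before the start, read on the minus strand, and capitals mark matches to any of the patterns named above:
Cxcl9, chr5:92328080-92328329: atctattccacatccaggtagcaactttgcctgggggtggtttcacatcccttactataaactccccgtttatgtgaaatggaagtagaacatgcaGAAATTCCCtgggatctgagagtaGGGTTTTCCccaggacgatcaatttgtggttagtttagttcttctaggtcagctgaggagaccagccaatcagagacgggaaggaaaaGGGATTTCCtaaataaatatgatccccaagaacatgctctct
Cxcl10, chr5:92348890-92349139: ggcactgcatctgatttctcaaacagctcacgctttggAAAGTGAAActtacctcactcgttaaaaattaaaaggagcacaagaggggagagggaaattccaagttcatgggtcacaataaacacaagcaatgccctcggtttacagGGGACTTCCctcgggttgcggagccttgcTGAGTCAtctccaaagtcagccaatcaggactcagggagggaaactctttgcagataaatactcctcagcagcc

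The Cxcl9 window holds 3 kappaB-type matches and no match to the ISRE, GAS or AP-1 patterns. The patterns have fixed letters and length, so a window without a match is not shown to lack such a site. One of its matches, 154 to 146 bases before the start, is the reverse complement of the letters shared by the 3 CXCR2 ligand promoters. The Cxcl10 window holds 1 kappaB-type match, an ISRE core match on the opposite strand 212 to 204 bases before the start and an AP-1 match 74 to 68 bases before the start. No matches overlapped one another in any of the member promoters. The promoter of Cxcl12, the other member in that table, holds no match, and Cxcl5, Cxcl16, Ccl2 and Ccl7 have no entry there.

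Cxcl9 and Cxcl10 showed nearly the same pair of levels. Cxcl9 was at 0.351 and 0.395 CPM (17 and 19 reads) in ILC2s labelled co-cultured, against 528.1 and 491.2 CPM in ILC2s labelled alone, a log2 difference of -10.19 (SE 0.19, edgeR adjusted p = 1.9e-11). Cxcl10 was at 0.309 and 0.333 CPM (15 and 16 reads) labelled co-cultured, against 545.5 and 535.6 CPM labelled alone, a log2 difference of -10.49 (SE 0.19, edgeR adjusted p = 1.9e-11). Libraries of 1 label lay close together for both genes, and the labels did not overlap. The reads of Cxcl10 for each read of Cxcl9 were 0.882 (0.410 to 1.88) and 0.842 (0.405 to 1.73) labelled co-cultured and 1.03 (1.02 to 1.05) and 1.09 (1.07 to 1.11) labelled alone, so at this depth their ratio could not be told apart between the labels.

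Cxcl16 encodes the membrane-bound ligand of CXCR6. It stood at 1.20 and 1.04 CPM (58 and 50 reads) in ILC2s labelled co-cultured, against 259.0 and 264.6 CPM in ILC2s labelled alone, a log2 difference of -7.65 (SE 0.17, edgeR adjusted p = 4.1e-11). That left 0.427% of the level labelled alone (0.351% to 0.516%), above the intervals of Cxcl9 (0.0512% to 0.101%) and Cxcl10 (0.0403% to 0.0843%). Cxcl16 lies on chromosome 11 at 70453983 to 70459984 and overlaps exons of Zmynd15 on the opposite strand, and 16.9% of the 50-base stretches of its transcripts also occur in that gene read on either strand. Cxcl10 overlaps Art3 in the same way over 3.59% of its stretches. The labels state no strand setting for the counts, so reads of the overlapping parts cannot be assigned with certainty.

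The order of the levels per transcript length also differed by label. In ILC2s labelled alone it was Cxcl5 (1281 ± 364.2 TPM, SD, n = 2), Cxcl10 (894.7 ± 15.6 TPM), Cxcl3 (697.8 ± 21.6 TPM), Cxcl9 (395.1 ± 22.0 TPM), Cxcl1 (276.4 ± 40.8 TPM), Cxcl16 (217.2 ± 2.30 TPM) and Cxcl2 (85.4 ± 4.41 TPM). Neighbours in this order did not overlap between libraries, though the distance of Cxcl5 from Cxcl10 was about as large as the spread of Cxcl5. In ILC2s labelled co-cultured Cxcl3 came first at 24.3 ± 3.26 TPM, followed by Cxcl2 at 1.42 ± 0.212 TPM and Cxcl16 at 0.992 ± 0.127 TPM. Cxcl10 (0.567 ± 0.0128 TPM), Cxcl9 (0.308 ± 0.0171 TPM), Cxcl5 (0.238 ± 0.205 TPM) and Cxcl1 (0.232 ± 0.178 TPM) came last, and the last 3 overlapped in their libraries.

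The levels of markers of other cells moved with the chemokines in ILC2s. Of the macrophage markers with a row, all 5 were called lower labelled co-cultured, with Cd14, a co-receptor for bacterial lipopolysaccharide, at 0.764% and Lyz2, encoding lysozyme, at 0.523% of the level labelled alone, and Cd68 at 46.9%. Of the stromal markers, 8 of 9 were called lower and 1, Lum, a gene named here only after its value was seen, was higher, while all 9 were lower when scaled to the ILC2 markers. The collagen gene Col1a2 kept 0.0312% and Sparc, encoding a matrix glycoprotein, 0.0335% of the level labelled alone. The shares of Cxcl5, Cxcl10, Cxcl9 and Cxcl1 (0.0174% to 0.0796%) lay within the range of the stromal markers (0.00909% to 162.6%) and below that of the macrophage markers (0.523% to 46.9%). The stromal range is so wide that lying within it says little about a gene. Cxcl2 at 1.57% and Cxcl3 at 3.28% lay within both ranges, and Cxcl16 at 0.427% lay just below the range of the macrophage markers, with a counting interval that overlaps that of Lyz2. No listed marker was at 0, since neither table holds a value of 0, and the defining macrophage genes C1qa, C1qb, C1qc, Mrc1 and Marco and the stromal genes Col3a1, Pdgfra and Postn had no row. Whether the chemokine reads came from such cells was not tested.

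**Figure D3:**
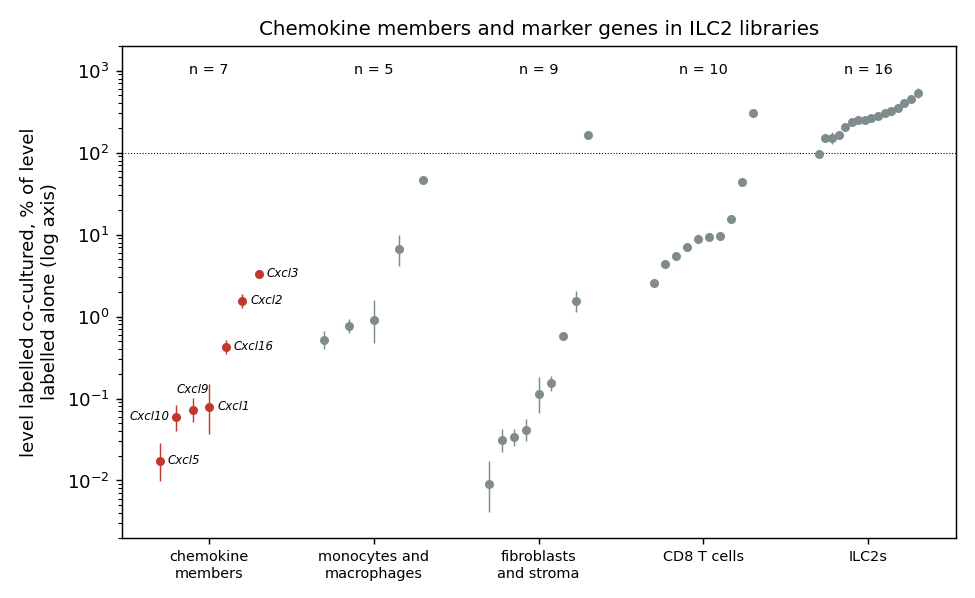
Level in ILC2 libraries labelled co-cultured as a percentage of the level in those labelled alone (log axis), for the 7 chemokine genes and for 4 marker lists. Points are genes ordered within a list, vertical bars are 95% exact counting intervals, and the dotted line marks equal levels. The chemokines run from 0.0174% for Cxcl5 to 3.28% for Cxcl3, and the ILC2 markers have a median of 255.5%.

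Among the remaining lists of markers in ILC2s, all 8 epithelial genes were lower, all 4 granulocyte and mast cell genes were lower, 2 of 5 dendritic cell genes were lower and 1 higher, and 1 of 5 B cell genes was lower and 1 higher. The only endothelial gene with a row, Pecam1, was higher. When scaled to the ILC2 markers, Pecam1 was lower (-0.38), 4 of 5 dendritic cell genes and 5 of 5 B cell genes were lower, and none of these lists held a higher gene. Of 16 ILC2 markers 15 were higher, and of 10 CD8 T cell markers 9 were lower and 1 higher. For comparison, 34.4% of all genes tested were lower and 31.8% higher.

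In CD8 T cells the chemokine genes with a row were at most at 3.47 CPM in any library, and the 3 that could be tested were lower in the libraries labelled co-cultured. Over the 15948 genes tested there, 60.9% were called, 30.7% as lower and 30.2% as higher. Summed over the 4 genes with a row, the level was 0.846 and 0.522 CPM in CD8 T cells labelled co-cultured, against 6.19 and 4.15 CPM labelled alone. Scaled to the CD8 T cell markers, 7424 genes were lower and 2706 higher, and all 3 chemokine genes were lower. The median log2 difference of the 3 was -3.09, and that of all genes tested was -0.01. The median of the 3 is the fitted value of Cxcl3, which had 21 reads labelled co-cultured. Of the 3, Cxcl3 and Cxcl16 passed the filter on low counts only through the libraries labelled alone.

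Cxcl10 was at 0.272 and 0.164 CPM (18 and 11 reads) in CD8 T cells labelled co-cultured, against 3.47 and 2.47 CPM (183 and 141 reads) in those labelled alone, a log2 difference of -3.84 (SE 0.33, edgeR adjusted p = 6.5e-07). Cxcl3 was at 0.166 and 0.149 CPM (11 and 10 reads) labelled co-cultured, against 1.56 and 1.02 CPM (82 and 58 reads) labelled alone, a log2 difference of -3.09 (SE 0.40, edgeR adjusted p = 2.1e-05). The libraries of the 2 labels were well apart for both genes. Cxcl16 was at 0.348 and 0.0895 CPM (23 and 6 reads) labelled co-cultured, against 0.949 and 0.613 CPM (50 and 35 reads) labelled alone, a log2 difference of -1.91 (SE 0.51, edgeR adjusted p = 0.0061). Its size rested on the replicates labelled co-cultured, with -3.17 without replicate 1 and -1.23 without replicate 2 of that group, still past the threshold (edgeR adjusted p = 1.6e-04 and 0.030). As percentages of the level labelled alone, Cxcl10 kept 7.37% (4.86% to 10.8%), Cxcl3 12.4% (7.41% to 19.6%) and Cxcl16 28.1% (17.8% to 43.3%). Cxcl2 was not tested and overlapped between the labels, with 4 and 8 reads labelled co-cultured and 11 and 3 reads labelled alone.

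Markers of other cells moved both ways in the CD8 T cell libraries. Lyz2 was at 0.181 and 0.104 CPM (12 and 7 reads) labelled co-cultured, against 3.74 and 2.17 CPM labelled alone (edgeR adjusted p = 7.5e-07). Lyz2 passed the filter on low counts only through the libraries labelled alone, so being tested already implied a higher level there. Cd68 was higher labelled co-cultured (log2 difference 1.04, SE 0.10). Of the macrophage markers tested 2 of 5 were lower and 1 higher, and the 6 with a row summed to 32.8 and 31.0 CPM labelled co-cultured and 19.6 and 17.9 CPM labelled alone. Of 4 stromal markers 2 were higher and 1 lower, with sums of 2.71 and 2.95 CPM labelled co-cultured and 3.46 and 3.00 CPM labelled alone. Both granulocyte and mast cell genes were lower, 2 of 3 epithelial genes were lower and 1 higher, 1 of 4 dendritic cell genes was lower and 1 higher, and neither B cell gene passed. Of the lower ones, Cpa3 (1 and 2 reads labelled co-cultured) and Krt18 (10 and 15 reads) also passed the filter only through the libraries labelled alone. The endothelial gene Pecam1 was higher, of 12 ILC2 markers 5 were higher and 6 lower, and of 10 CD8 T cell markers 5 were higher and 1 lower. For comparison, 30.2% of all genes tested were higher and 30.7% lower.

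For all 4 genes found in both tables the log2 response was more negative in ILC2s than in CD8 T cells, tested as an interaction over the 8 libraries, in which 53.6% of the 15532 genes tested differed. The difference of the log2 responses, ILC2s minus CD8 T cells, was -6.82 for Cxcl10 (SE 0.51, edgeR adjusted p = 1.6e-08), -5.91 for Cxcl16 (SE 0.59), -5.37 for Cxcl2 (SE 0.78) and -1.80 for Cxcl3 (SE 0.44, edgeR adjusted p = 0.0026). No fall of Cxcl2 was shown in CD8 T cells, where it passed the filter on low counts in neither group, and it entered this test only through its level in ILC2s. The lowest count listed is 1 read. From their levels labelled alone, Cxcl2, Cxcl10 and Cxcl16 could therefore not have fallen as far in CD8 T cells as in ILC2s. For these genes the direction of the difference was fixed in advance, and the test cannot show a weaker response of CD8 T cells. With few reads in CD8 T cells, the value of Cxcl2 became -6.62 or -4.70 without CD8 T cell replicate 1 or 2 labelled alone, and that of Cxcl16 -4.66 or -6.59 without CD8 T cell replicate 1 or 2 labelled co-cultured. Cxcl3 had the smallest difference of the 4, and its fall in ILC2s left it at 10.4 ± 1.69 CPM there, against 0.158 ± 0.0121 CPM in CD8 T cells labelled co-cultured.

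The receptors of these chemokines did not share a direction. In ILC2s, Cxcr2, the receptor of the neutrophil attractants, was at 0.124 and 0.187 CPM (6 and 9 reads) labelled co-cultured, against 0.988 and 1.52 CPM labelled alone (edgeR adjusted p = 3.9e-04). Cxcr2 passed the filter on low counts only through the libraries labelled alone, so being tested already implied a higher level there. Cxcr3, the receptor of CXCL9 and CXCL10, was at 0.371 and 0.416 CPM labelled co-cultured, against 5.07 and 5.92 CPM labelled alone, a log2 difference of -3.58 (SE 0.30, edgeR adjusted p = 8.4e-07). Both were scarce in ILC2s labelled co-cultured. Ccr2, the receptor of CCL2 and CCL7, went the other way with 693.2 and 579.2 CPM labelled co-cultured, against 64.2 and 65.4 CPM labelled alone (log2 difference 3.51, SE 0.15, edgeR adjusted p = 3.0e-09).

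Cxcr6, which binds CXCL16, was at 1807 and 1858 CPM in ILC2s labelled co-cultured, against 794.0 and 925.2 CPM labelled alone (log2 difference 1.31, SE 0.12), and Cxcr4, which binds CXCL12, was at 27.6 and 28.4 CPM, against 7.66 and 10.6 CPM (log2 difference 1.83, SE 0.17). When the libraries were scaled to the ILC2 markers, which moves the median of all genes to -1.57, Ccr2 was still higher (1.94, SE 0.12), Cxcr4 no longer passed (0.27, SE 0.17) and Cxcr6 turned to lower (-0.26, SE 0.11), so the direction of Cxcr6 is relative to the scaling. Over the 16 receptor genes tested in ILC2s, 7 were higher and 7 lower, and under that scaling 2 were higher and 12 lower. Of all genes tested, 31.8% were higher and 34.4% lower, and under that scaling 460 of 16739 were higher and 13461 lower. Ccr7, which guides cells to lymph nodes, was among the lower ones at 101.9 ± 8.14 CPM, against 490.9 ± 16.1 CPM labelled alone, and so was the gut-homing receptor gene Ccr9 (10.2 ± 1.11 against 44.0 ± 0.520 CPM).

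**Figure D4:**
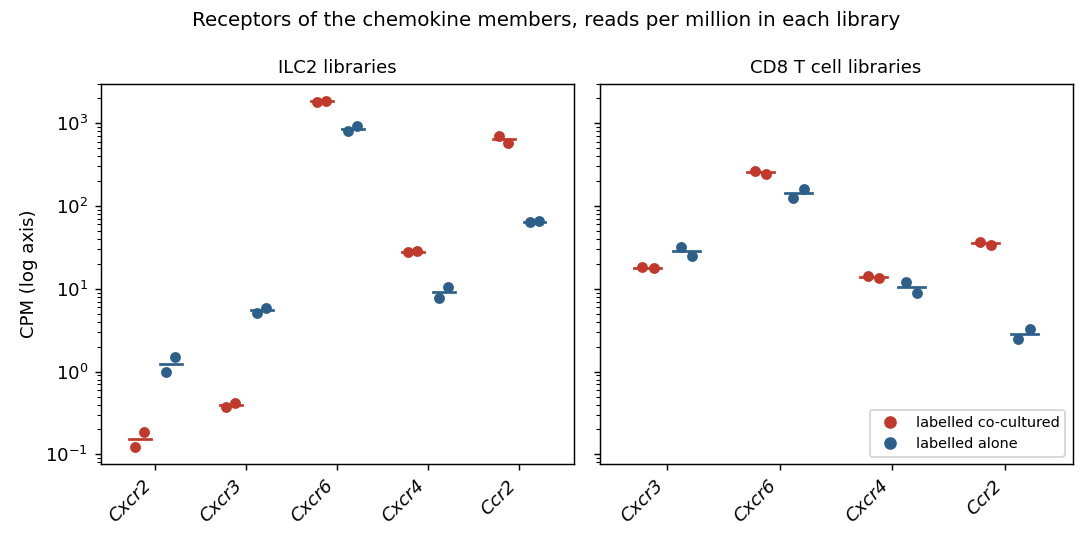
Level in CPM (log axis) of the receptors of the listed chemokines in every library, with ILC2 libraries on the left and CD8 T cell libraries on the right. Points are libraries and bars are means of 2 libraries. In ILC2s Cxcr2 and Cxcr3 lie lower and Cxcr6, Cxcr4 and Ccr2 higher labelled co-cultured, though Cxcr6 turns to lower when scaled to the ILC2 markers.

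In CD8 T cells, Cxcr3 was at 18.2 and 17.6 CPM labelled co-cultured, against 31.8 and 24.6 CPM labelled alone, a log2 difference of -0.73 (SE 0.12, edgeR adjusted p = 1.3e-04). Cxcr6 was higher at 266.9 and 243.9 CPM, against 125.8 and 161.9 CPM (log2 difference 0.75, SE 0.11), and Ccr2 was higher at 36.6 and 34.3 CPM, against 2.49 and 3.28 CPM (log2 difference 3.53, SE 0.14). Cxcr4 did not pass (13.9 ± 0.643 CPM labelled co-cultured and 10.4 ± 2.20 CPM labelled alone, edgeR adjusted p = 0.056), and Cxcr2 had no row. Of 14 receptor genes tested in CD8 T cells 8 were higher and 3 lower, among them Ccr7 higher (log2 difference 0.51, SE 0.08) and the type 2 lymphocyte receptor gene Ccr8 lower (-2.62, SE 0.09). Ccr9, lower in ILC2s, was higher here at 300.6 ± 3.01 CPM, against 1.53 ± 0.461 CPM labelled alone (log2 difference 7.54, SE 0.13). Of all genes tested in CD8 T cells, 30.2% were higher and 30.7% lower.

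Other chemokine ligand genes were lower in ILC2s labelled co-cultured in 12 of 13 cases, and 1 did not pass, beside 34.4% lower over all genes tested. Ccl6, Pf4 and Ppbp passed the filter on low counts only through the libraries labelled alone, so being tested already implied a higher level there. Ccl3 and Ccl4, chemokine genes of activated lymphocytes and macrophages, were at 1.82 ± 0.509 and 2.31 ± 0.907 CPM labelled co-cultured, against 339.5 ± 21.3 and 316.6 ± 35.3 CPM labelled alone. Over the 13 genes the median log2 difference was -5.75, the fitted value of Ppbp, which had 15 reads labelled co-cultured, and is not read as a size. Among CD8 T cells 8 of 10 such genes were lower and 1 higher, beside 30.7% and 30.2% of all genes tested. There Ccl3 (-1.40, SE 0.07) and Ccl4 (-0.72, SE 0.09) were lower labelled co-cultured, and Ccl5, a chemokine gene of activated T cells, was higher (1.38, SE 0.12). Ccl17, among the lower genes in CD8 T cells, passed the filter only through the libraries labelled alone.

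Of the genes that scavenge, shed or cleave chemokines, 4 of 6 were lower and 2 higher in ILC2s labelled co-cultured, while 5 were lower and 0 higher when scaled to the ILC2 markers. Of all genes tested in ILC2s, 34.4% were lower and 31.8% higher. Ackr3, which takes up CXCL12, was at 1.36 and 0.728 CPM labelled co-cultured, against 15.1 and 18.9 CPM labelled alone (log2 difference -3.80, SE 0.28). The sheddase gene Adam10 was lower (-0.56, SE 0.15) and Adam17 higher though its libraries overlapped between the labels (0.40, SE 0.16, and -1.17 when scaled to the ILC2 markers). Dpp4, encoding a peptidase that trims chemokines, was lower (-0.42, SE 0.13), and Ackr4, a scavenging receptor gene with 29 reads labelled co-cultured, was called higher. Ackr4 passed the filter on low counts only through the libraries labelled co-cultured, so being tested already implied a higher level there. Among CD8 T cell libraries 2 of 5 were higher and 0 lower (2 and 2 when scaled to the CD8 T cell markers), with the higher ones Adam17 (0.66, SE 0.08) and Dpp4 (1.11, SE 0.08), and Adam10 did not pass (edgeR adjusted p = 0.057). There 30.2% of all genes tested were higher and 30.7% lower.

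Il1b and Tnf, genes of inducers of the CXCR2 ligands, were lower in ILC2s labelled co-cultured, and Tnfaip3, an inhibitor of the same pathway, was higher. Of 19 genes of the interleukin-1, TNF and NF-kappaB list tested in ILC2s, 12 were lower and 4 higher labelled co-cultured, and 18 were lower and 1 higher when scaled to the ILC2 markers. Of all genes tested, 34.4% were lower and 31.8% higher. Il1b, encoding interleukin-1 beta, was at 0.309 and 0.790 CPM, against 41.4 and 44.8 CPM labelled alone (log2 difference -6.08, SE 0.27), and Tnf was at 6.64 and 8.92 CPM, against 29.8 and 31.3 CPM (-1.76, SE 0.16). Ptgs2, the cyclooxygenase gene induced by the same signals, was at 1.44 and 1.19 CPM, against 988.2 and 1002 CPM (-9.35, SE 0.18). Nfkbia, the gene of an NF-kappaB inhibitor, was lower (-1.02, SE 0.12), as was Nfkbiz, which encodes a co-activator of NF-kappaB (-0.56, SE 0.12). Tnfaip3, encoding the inhibitor A20, was higher at 988.3 ± 90.0 CPM, against 319.3 ± 23.8 CPM (1.85, SE 0.13, and 0.28 when scaled to the ILC2 markers), and the TNF receptor gene Tnfrsf1b was higher (0.71, SE 0.12, and -0.86 under that scaling).

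Of the same list, 8 of 17 genes tested in CD8 T cells were higher and 8 lower (6 and 9 when scaled to the CD8 T cell markers). Of all genes tested there, 30.2% were higher and 30.7% lower. Tnf was lower (-1.81, SE 0.09), as were Nfkb2 (-0.69, SE 0.08), encoding an NF-kappaB subunit, and Nfkbia (-0.52, SE 0.07). Nfkbiz (1.38, SE 0.10), Tnfaip3 (1.48, SE 0.10) and Tnfrsf1b (1.503, SE 0.08) were higher, and Il1b had no row.

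Interferon gamma, the main inducer of Cxcl9, was lower labelled co-cultured in both cell types. Ifng was at 0.371 and 3.12 CPM (18 and 150 reads) in ILC2s labelled co-cultured, against 202.8 and 210.2 CPM in ILC2s labelled alone (log2 difference -6.69, SE 0.49, edgeR adjusted p = 3.3e-07). In CD8 T cells it was at 105.7 and 106.0 CPM labelled co-cultured, against 1591 and 1513 CPM labelled alone (-3.95, SE 0.08). For the whole interferon gamma list the count in ILC2s depended on the scaling, with 14 lower and 0 higher when scaled to the ILC2 markers. Without that scaling 7 of 14 were lower and 4 higher, beside 34.4% and 31.8% of all genes tested. They included the interferon-induced GTPase genes Gbp2 (-1.57, SE 0.12) and Gbp4 (-0.55, SE 0.13) lower, and the transcription factor gene Irf1 (0.61, SE 0.11) and the receptor gene Ifngr1 (1.15, SE 0.11) higher, the last 2 turning to lower (-0.96 and -0.42) when scaled to the ILC2 markers. Among CD8 T cell libraries 7 of 14 were higher and 3 lower (7 and 7 when scaled to the CD8 T cell markers), with Ifngr1 (2.01, SE 0.08) and Irf8 (0.85, SE 0.07), a transcription factor gene, higher, and Ciita, the activator of MHC class II genes, lower (-1.05, SE 0.42, 43 reads labelled co-cultured and 69 labelled alone). Of all genes tested in CD8 T cells, 30.2% were higher and 30.7% lower.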

How the data were processed

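Bulk RNA of sorted mouse ILC2s and CD8 T cells was sequenced in 8 libraries, with RNA taken up in Trizol and amplified by SMART-Seq v4, per the labels' protocols. The authors deposited whole-number read counts per gene symbol in 2 tables of 4 libraries. The genome mm10 and the tools StringTie 2.1.3b, SAMtools 1.9, HISAT2 2.1.0 and Trimmomatic 0.38 are listed in the submitters' processing notes. For annotation, strand setting and filters the sources give nothing. The lowest value in either table is 1. A gene at 0 in any library may therefore have no row.

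Here each table was tested with edgeR 4.0.16 (R 4.3.3; filterByExpr, TMM, quasi-likelihood, 2 residual and 9.23 or 10.4 prior degrees of freedom), and the difference of responses over 8 libraries and genes in both tables. SE is the log2 difference divided by the square root of F. CPM used library totals with no TMM factor. DESeq2 1.42.0, limma-voom (limma 3.58.1), other scalings and filters, a replicate block and left-out libraries were alternatives. Replicate pairs were not the same library deposited again (chi-square per gene 13.9 to 28.7). Positions and lengths came from GENCODE M21 (GRCm38), with a length for 88.6% of symbols, and promoters from RefSeq GRCm38.p6.

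The members, the 5 pathway lists and the 9 marker lists were chosen with earlier results of these data known. Named genes were the members, up to 2 called genes per direction with the highest mean CPM in each pathway list, receptors and inducers of members, and the 2 most abundant markers of a list. The other list genes were counted only, except a few named to give a limit or a contrast. The counts include genes that passed the filter on low counts only through libraries of a single label. For those genes the direction was implied by being tested. Summaries used Python 3.11.15 with pandas 2.3.3, scipy 1.17.1 and matplotlib 3.10.9. Protein sequences were not used here.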

Additional observations from a re-analysis of the deposited data

Results flagged for a closer look

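For 4 chemokine genes the fitted response to co-culture was called as different between the cell types (edgeR's quasi-likelihood test of the interaction, adjusted over 15532 genes). The difference of the log2 responses, ILC2s minus CD8 T cells, was -5.37 for Cxcl2 (adjusted p = 2.6e-05), -1.80 for Cxcl3 (adjusted p = 0.0026), -6.82 for Cxcl10 (adjusted p = 1.6e-08) and -5.91 for Cxcl16 (adjusted p = 4.4e-07). Each was lower in both ILC2 libraries labelled co-cultured, while the CD8 T cell libraries held at most 183 reads of any of them, and Cxcl2 held 3 to 11 reads there. With 1 read as the lowest count listed, Cxcl2, Cxcl10 and Cxcl16 could not have fallen as far in CD8 T cells as in ILC2s. For these genes the call therefore does not show a weaker response of CD8 T cells.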

How the results depend on the processing

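The 7 members tested in ILC2s and the 3 tested in CD8 T cells stayed lower and past the threshold in each alternative that tested them, as did the 4 differences of responses (186 values in all). Single libraries moved the fitted log2 difference of Cxcl5 in ILC2s (-13.63 without co-cultured replicate 1 and -11.57 without replicate 2) and of Cxcl1 (-11.16 without co-cultured replicate 2). These values rest on few reads and are not read as sizes. The log2 difference of Cxcl3 in ILC2s ranged from -6.28 to -4.63 and that of Cxcl16 in CD8 T cells from -3.17 to -1.23 (highest adjusted p 0.032). In a fit of all 8 libraries only 4 members have a row in both tables, and 4 of 4 were called lower in ILC2s. Scaling to the marker list of the own cell type gave 13461 genes lower and 460 higher in ILC2s, and 7424 lower and 2706 higher in CD8 T cells, against 5766 and 5324, and 4901 and 4810. It moved the median of all genes to -1.57 and -0.34, and library totals moved it to -0.22 in ILC2s.

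Leaving out 1 library, with a lone library assumed to vary like the other group, gave 9429 to 11053 genes called in ILC2s, 8552 to 9092 in CD8 T cells and 7097 to 8429 for the difference of responses. Same-numbered libraries share only a number, with correlations of their deviations of 0.042 in ILC2s and -0.027 in CD8 T cells. With the replicate block 11056, 9732 and 8457 genes were called in ILC2s, CD8 T cells and the difference of responses, and 7, 3 and 4 members. Depth limits Cxcl1 and Cxcl5 in ILC2s labelled co-cultured (9 and 15 reads) and Cxcl2 in CD8 T cells (12 and 14 reads).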
